A study of Rattus norvegicus with 6 samples.

Results

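The genes described here are those of the epidermal growth factor (EGF) family that the array names singly: the ligands Hbegf, Areg, Ereg, Tgfa, Btc and Egf, the receptors Egfr, Erbb2 and Erbb3, and Errfi1, an inhibitor of the receptors. They were taken as every probe set whose array annotation gives 1 symbol and that symbol is one of these 10 genes. These 10 are among 14217 genes named on the array. They had 13 of the 31042 probe sets, with 3 for Egfr, 2 for Tgfa and 1 for each other gene. RNA came from rat pituitary kept as organ culture, in 3 samples given 10 nM GnRH and 3 control samples, with 1 array per sample. GnRH, gonadotropin-releasing hormone, reaches the pituitary from the hypothalamus and drives gonadotropes to secrete LH and FSH. The sources used here do not give the length of exposure, the number of glands in a culture or the strain, age and sex of the rats. Nor do the labels say whether samples of a group came from separate cultures, so the p-values cover no more than sample-to-sample spread, and a share of that may be technical.

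EGF family ligands are made as precursors anchored in the cell membrane, and metalloproteinases such as Adam17 cut them free. The released ligands bind Egfr, which pairs with itself or with Erbb2 or Erbb3 and passes the signal to Ras, Raf and ERK and to PI3 kinase. Errfi1, also called RALT, binds the kinase domain of these receptors and blocks it, and its own gene is induced by the signal. In mouse gonadotrope cell lines GnRH is known to activate the EGF receptor through metalloproteinases, and EGF itself acts on several pituitary cell types.

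Hbegf, Areg and Errfi1 are the member genes whose promoters are shown, because Hbegf and Errfi1 had the largest differences between the groups and Areg is a ligand gene with a cyclic AMP response element. Each sequence is the 250 bases before the annotated start of the gene in RefSeq on GRCr8, written on the gene's own strand. Capitals mark the matches found: TGACGTCA (the full cyclic AMP response element, CRE), its core TGACG on either strand, and TATAAA (the TATA box) on the gene's strand.
Hbegf, chr18:28390221-28390470, minus strand: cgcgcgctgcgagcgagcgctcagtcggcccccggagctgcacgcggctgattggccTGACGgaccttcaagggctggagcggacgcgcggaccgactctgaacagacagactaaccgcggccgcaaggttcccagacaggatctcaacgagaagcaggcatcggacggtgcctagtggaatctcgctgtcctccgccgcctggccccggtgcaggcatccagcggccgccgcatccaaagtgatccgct
Areg, chr14:17265642-17265891, minus strand: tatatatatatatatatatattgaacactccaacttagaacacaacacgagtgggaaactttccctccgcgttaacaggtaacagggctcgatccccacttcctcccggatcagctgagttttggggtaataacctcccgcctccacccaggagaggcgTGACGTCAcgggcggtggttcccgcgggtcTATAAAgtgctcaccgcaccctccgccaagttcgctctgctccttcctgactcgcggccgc
Errfi1, chr5:166606591-166606840, plus strand: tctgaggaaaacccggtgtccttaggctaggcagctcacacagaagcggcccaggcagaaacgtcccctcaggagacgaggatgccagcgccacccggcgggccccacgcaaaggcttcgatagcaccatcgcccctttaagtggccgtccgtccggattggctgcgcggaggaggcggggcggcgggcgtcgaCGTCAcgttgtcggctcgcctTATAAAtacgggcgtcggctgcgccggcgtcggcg

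Promoter windows were at hand for 8 of the 10 genes, all but Ereg and Erbb3. The full CRE stood in 1 of these 8 windows, that of Areg, at bases -91 to -84 before the start, and in 1.59% of 33469 rat promoter windows of the same length. The CRE core, which also lies inside the full element, stood in the windows of Areg, Hbegf (-193 to -189) and Errfi1 (-56 to -52), or 3 of 8, and in 18.2% of all windows. A TATA box stood in the windows of Areg (-61 to -56) and Errfi1 (-35 to -30), and in 8.06% of all windows. The AP-1 motif TGANTCA (6.34% of all windows) and the EGR motif GCGNGGGCG (4.29%), each sought on both strands, had no match in the 8 windows. A match is a description of the letters and not a site shown to be used.

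As a check of the tissue, the growth hormone gene Gh1 had log2 intensities of 14.09 to 14.18 with GnRH and 14.20 to 14.25 in controls, and the prolactin gene Prl 14.16 to 14.21 with GnRH and 13.83 to 14.15 in controls. The median linear intensity of the 6 arrays ran from 64.5 to 67.0. Control 3 stood apart from the other controls: over all probe sets its Pearson correlation was 0.983 and 0.986 with controls 1 and 2, which had 0.994 with each other, and 0.988 to 0.991 with the GnRH arrays. Xist, the RNA that silences an X chromosome in female cells, measured 9.73, 9.16 and 9.49 on the log2 scale with GnRH and 3.91, 3.66 and 9.77 in controls 1, 2 and 3. Differences against controls 1 and 2 therefore also set high against low Xist, and the difference against control 3 rests on 1 array. The fit of all 6 arrays shares this imbalance, since Xist was high on every GnRH array and low in controls 1 and 2. Its part in the differences below was not tested.

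None of the 13 probe sets passed the test (limma, Benjamini-Hochberg adjusted p under 0.05 over all probe sets), while 144 of 31042, or 0.464%, did so across the array. At an unadjusted p under 0.05 there were 2 of 13, Hbegf and Errfi1, both lower with GnRH. Of all probe sets, 5.66% were lower and 6.60% higher at that level, and the members were tested in both directions. The same 2 were the members whose groups did not overlap, against 9.62% of all probe sets that lay lower without overlap. That share leaves out probe sets that lay higher without overlap. The median log2 fold change of the 13 probe sets was -0.045, against -0.025 for all probe sets. For 9 of the 13 the difference was under 0.15 in size on the log2 scale, as it was for 69.6% of all probe sets.

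**Figure D1:**
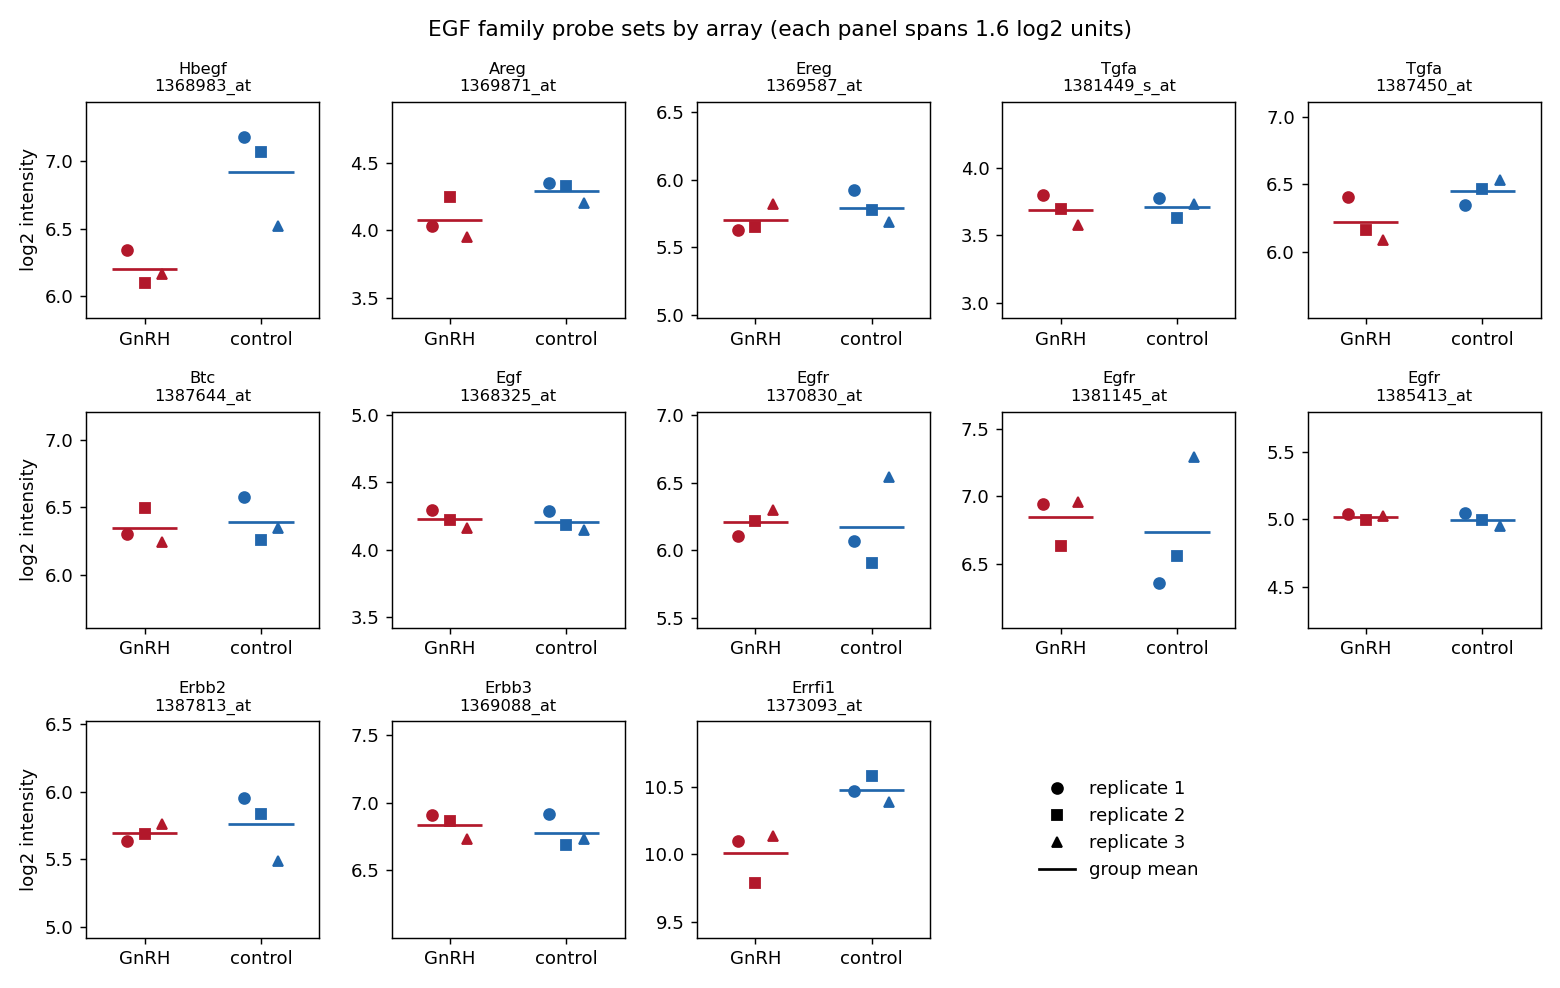
Log2 intensity (vertical axis, each panel spanning the same 1.6 log2 units) of the 13 EGF family probe sets in the GnRH arrays (red, left) and the control arrays (blue, right); marker shapes give the replicate number and lines the group means. The groups are apart for Hbegf and Errfi1 and overlap in the other 11 panels, and control 3 (blue triangle) lies above all other arrays on the Egfr probe sets 1370830_at and 1381145_at.

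Hbegf, which encodes heparin-binding EGF-like growth factor, had the largest difference among the ligands. On probe set 1368983_at its log2 intensities were 6.34, 6.10 and 6.17 with GnRH and 7.18, 7.07 and 6.52 in controls. On the linear scale these were 81.2, 68.5 and 71.9 with GnRH, against 145 and 134 in controls 1 and 2 and 92.0 in control 3. All GnRH arrays lay below all controls, with a gap of 0.18 on the log2 scale between the nearest pair, the first GnRH array and control 3. The means were 6.20 ± 0.13 with GnRH and 6.92 ± 0.35 in controls (SD, n = 3 each). The log2 fold change was -0.72 ± 0.16 (SE; 95% interval -1.07 to -0.38), or 1.65-fold lower with GnRH, and it missed the threshold (limma adjusted p = 0.0883, unadjusted p = 0.00085). At the looser adjusted p of 0.10 it was the 1 member of 13 to pass, against 1.10% of all probe sets.

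The size for Hbegf depended on control 3, which was 0.60 lower than the mean of controls 1 and 2. Without control 3 the log2 fold change was -0.92 and passed (limma adjusted p = 0.000849), in a fit where 7.44% of all probe sets passed, the lower ones being 2.49% of all. Against control 3 alone it was -0.32 and did not pass (limma adjusted p = 0.382). With array weights estimated from the data (control 3 lowest, at 0.298), it was -0.82 and passed (limma adjusted p = 0.00181), as did 9.73% of all probe sets. Control 2, with low Xist, had the highest weight, 2.72, so the weighted fit is not independent of the fit without control 3. The Hbegf difference lay below 0 in each of the 17 alternatives run on it. With all GnRH arrays below all controls, leaving out, weighting or blocking arrays could not turn that sign. Those alternatives are no test of the direction.

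Areg encodes amphiregulin, a ligand of Egfr. On probe set 1369871_at it had 4.03, 4.25 and 3.95 with GnRH and 4.35, 4.32 and 4.20 in controls. The second GnRH array lay above control 3, so the groups overlapped, and the difference of -0.21 ± 0.10 (SE; 95% interval -0.44 to 0.010) did not pass (limma adjusted p = 0.429). Its mean was among the lowest 25% of all probe sets, below 4.96 on the log2 scale. The table holds no detection calls, so whether so dim a signal stood above background cannot be said.

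Tgfa encodes transforming growth factor alpha, another ligand of Egfr. Probe set 1387450_at had 6.40, 6.16 and 6.09 with GnRH and 6.35, 6.47 and 6.53 in controls. The first GnRH array lay above control 1 and the other two below all controls. The difference was -0.23 ± 0.10 (SE; 95% interval -0.46 to 0.00047), and it did not pass (limma adjusted p = 0.408). The other Tgfa probe set, 1381449_s_at, was also among the dimmest 25%, with 3.80, 3.70 and 3.58 with GnRH and 3.77, 3.63 and 3.73 in controls. Its difference was -0.022 (limma adjusted p = 0.945), and its sign turned with repeated quantile normalization and with cyclic loess, to 0.023 and 0.027.

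Ereg, Btc and Egf encode epiregulin, betacellulin and EGF itself. Ereg had 5.63, 5.65 and 5.82 with GnRH and 5.92, 5.77 and 5.69 in controls (difference -0.092, 95% interval -0.31 to 0.13, limma adjusted p = 0.739). Btc had 6.30, 6.50 and 6.24 with GnRH and 6.58, 6.25 and 6.34 in controls (difference -0.045, 95% interval -0.29 to 0.20, limma adjusted p = 0.900). Egf, like Areg among the dimmest 25%, had 4.30, 4.22 and 4.16 with GnRH and 4.29, 4.18 and 4.15 in controls (difference 0.018, 95% interval -0.18 to 0.21, limma adjusted p = 0.953). In all 3 genes the arrays of the groups were interleaved. The intervals reach from -0.31 to 0.21 on the log2 scale, so differences inside these bounds could not be told from none with 3 arrays a group.

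Btc, Areg and Ereg are direct neighbours among the protein-coding genes of rat chromosome 14, in that order, followed by Epgn, a further ligand gene that no probe set names alone here. Their differences, -0.045, -0.21 and -0.092, were all below 0 and none passed the test. Over the ligands as a whole, 6 of 7 probe sets had a log2 fold change below 0, as had 57.4% of all probe sets.

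Egfr, the receptor that binds all 6 of these ligands, was measured by 3 probe sets that did not behave alike. Probe set 1381145_at had 6.94, 6.63 and 6.96 with GnRH and 6.36, 6.56 and 7.29 in controls. Probe set 1370830_at had 6.11, 6.22 and 6.30 with GnRH and 6.07, 5.91 and 6.54 in controls. On both, control 3 was the highest of the 6 arrays and controls 1 and 2 were the lowest pair. Probe set 1385413_at was nearly flat, with 5.03, 4.99 and 5.02 with GnRH and 5.04, 4.99 and 4.95 in controls, a range of 0.098 over the 6 arrays against 0.93 and 0.63 on the others. Its mean lay just above 4.96, the bound of the dimmest 25% of probe sets, so what it could show is limited.

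The log2 fold changes of Egfr were 0.11 ± 0.20, 0.034 ± 0.15 and 0.022 ± 0.082 (SE) on 1381145_at, 1370830_at and 1385413_at (limma adjusted p = 0.866, 0.946 and 0.937). The direction on the first 2 depended on which controls were used. Against controls 1 and 2, that is without control 3, the differences were 0.38 and 0.22 (limma adjusted p = 0.0730 and 0.183), and against control 3 alone they were -0.45 and -0.33 (limma adjusted p = 0.264 and 0.314). Without control 1 they also turned, to -0.083 and -0.018, and on 1370830_at without control 2 (-0.098) or GnRH 3 (-0.012). The gap between control 3 and the mean of the other controls, 0.83 and 0.55, was larger than either difference. Egfr mRNA differed more among controls than between the groups on these probe sets.

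Erbb2 encodes a receptor with no known ligand of its own, which acts as the partner of the others. It had 5.63, 5.69 and 5.76 with GnRH and 5.95, 5.84 and 5.49 in controls. Control 3 was here the lowest of all arrays and controls 1 and 2 were the highest, the reverse of the order on the brighter Egfr probe sets. The difference was -0.066 (95% interval -0.33 to 0.20, limma adjusted p = 0.857). It was -0.20 without control 3 and 0.21 against control 3 alone, neither past the threshold (limma adjusted p = 0.184 and 0.571).

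Erbb3, a receptor with a weak kinase that binds neuregulins, had 6.91, 6.87 and 6.73 with GnRH and 6.92, 6.69 and 6.73 in controls. Its groups overlapped throughout, and the difference was 0.058 (95% interval -0.16 to 0.27, limma adjusted p = 0.842). Over the 3 receptor genes, 4 of 5 probe sets had a log2 fold change above 0 and 1 below, with none past the threshold (limma) and none at an unadjusted p under 0.05. Of the 4 above 0, 3 were probe sets of Egfr, and 57.4% of all probe sets were below 0.

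**Figure D2:**
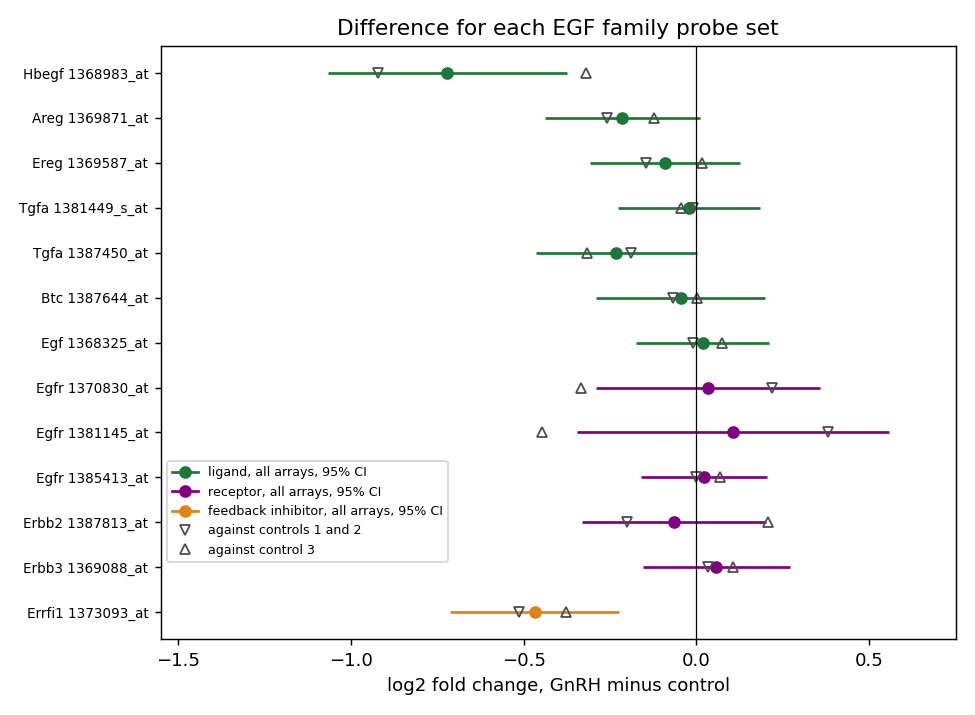
Log2 fold change, GnRH minus control (horizontal axis), for the 13 probe sets; filled circles and bars give all 6 arrays with the 95% interval, open triangles the same GnRH mean against controls 1 and 2 (pointing down) or control 3 alone (pointing up). The intervals of Hbegf and Errfi1 lie below 0. The triangles fall on opposite sides of 0 for all 3 Egfr probe sets, Erbb2, Ereg, Btc and Egf, and are furthest apart for Egfr 1381145_at (0.38 and -0.45).

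Errfi1, the feedback inhibitor, was the other member with separate groups. On probe set 1373093_at it had log2 intensities of 10.10, 9.79 and 10.14 with GnRH and 10.47, 10.58 and 10.39 in controls. On the linear scale these were 1097, 885 and 1126 with GnRH and 1419, 1527 and 1337 in controls. The third GnRH array and control 3 were the nearest pair, 0.25 apart on the log2 scale. The means were 10.01 ± 0.19 with GnRH and 10.48 ± 0.10 in controls (SD, n = 3 each). The log2 fold change was -0.47 ± 0.11 (SE; 95% interval -0.71 to -0.22), or 1.38-fold lower with GnRH, and it missed the threshold (limma adjusted p = 0.118, unadjusted p = 0.00155).

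Errfi1 leaned on control 3 less than Hbegf did, since control 3 was 0.14 below the mean of controls 1 and 2. The difference was -0.51 without control 3 (limma adjusted p = 0.0234) and -0.38 against control 3 alone (limma adjusted p = 0.375). With array weights it was -0.52 (limma adjusted p = 0.00837). The lowest Errfi1 value was that of the second GnRH array, and without that array the difference was -0.36 (limma adjusted p = 0.420). The direction was downward in each of the 17 alternatives run on it, and it passed in 2 of them. As for Hbegf, the separate groups fixed that direction wherever arrays were left out, weighted or blocked.

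**Figure D3:**
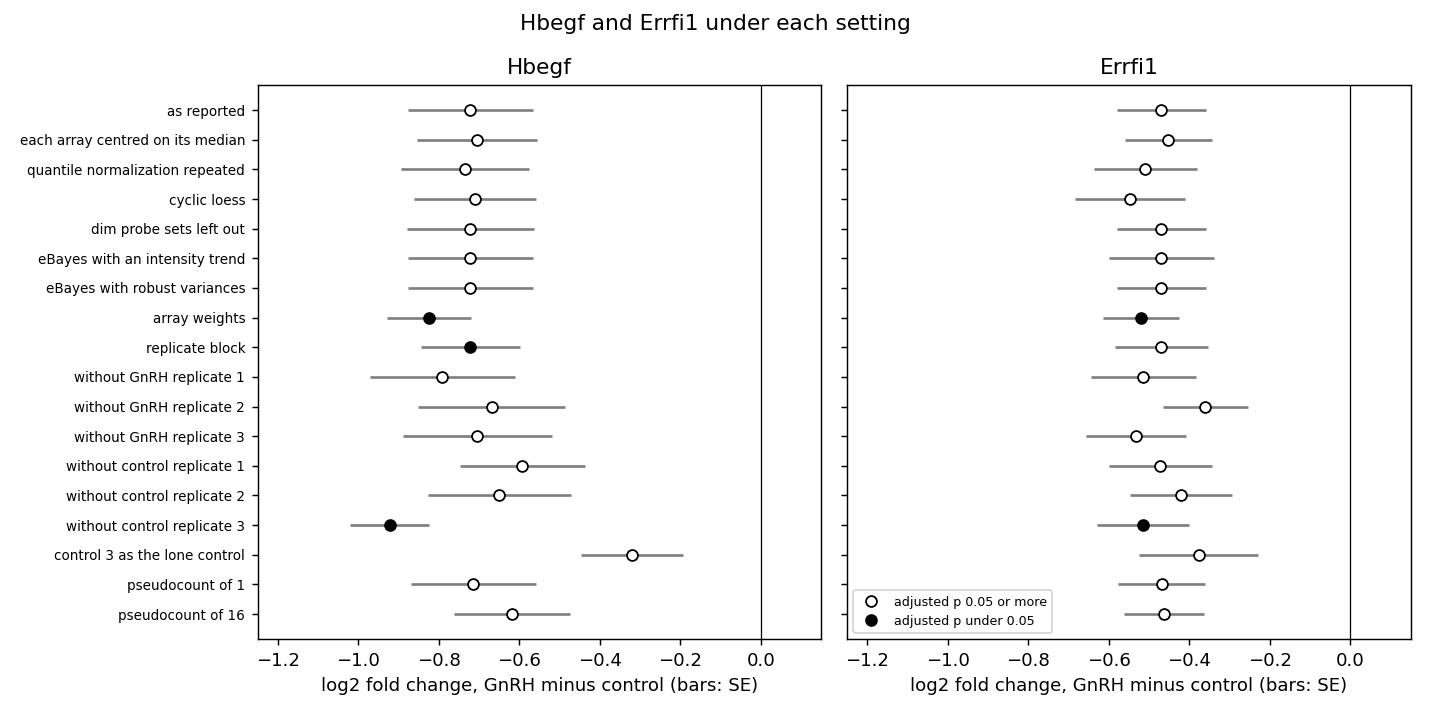
Log2 fold change, GnRH minus control (horizontal axis, bars give the SE), of Hbegf (left) and Errfi1 (right) as reported and under each alternative named on the vertical axis; filled points passed at an adjusted p under 0.05. All points lie below 0, from -0.92 to -0.32 for Hbegf and from -0.55 to -0.36 for Errfi1. Where arrays were left out, weighted or blocked, the separate groups fixed that side of 0 in advance.

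The 5 genes with profiles most like that of Hbegf were found by the root mean square difference between log2 profiles, each centred on its own mean of the 6 arrays. Hbegf was both the member with the smallest p-value and the one with the largest spread. Closest was Amigo2, a cell adhesion molecule, at 0.088 log2 units, with 7.08, 6.74 and 6.86 with GnRH and 7.83, 7.59 and 7.02 in controls. Then came Prss22, a serine protease (0.13), Itsn2, an endocytic scaffold protein (0.13), Cryab, the small heat shock protein alpha-B crystallin (0.14), and Msmo1, a sterol synthesis oxidase (0.15). Control 3 lay below controls 1 and 2 in all 5, and above the 3 GnRH arrays in all but Amigo2, where the first GnRH array was higher. Msmo1 alone of them passed the test (log2 fold change -0.61, limma adjusted p = 0.0445).

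Summed levels of the markers of 3 other cell groups were lower with GnRH without overlap, as Hbegf and Errfi1 were. For 2 of these 3 sums, leaving out a single gene was enough to make the groups overlap. The summed linear intensity of the 6 posterior lobe and glial markers was 468 to 730 with GnRH and 773 to 1093 in controls, with 3 markers above 0 and 3 below in log2 fold change. Gfap, the intermediate filament of astrocytes and pituicytes, carried this separation, and without it the sums overlapped (414 to 604 with GnRH, 531 to 590 in controls). Gfap had 7.69, 6.47 and 5.76 with GnRH and 7.92, 8.97 and 8.94 in controls, a difference of -1.97 that did not pass (limma adjusted p = 0.0835). The sum of 5 folliculostellate and stem-like markers was 1043 to 1259 with GnRH and 1289 to 1514 in controls (2 above 0, 3 below), and it overlapped without Anxa1 (748 to 786 with GnRH, 762 to 883 in controls) or without Cdh1 (845 to 1029 with GnRH, 1027 to 1208 in controls). The sum of 5 leukocyte markers was 280 to 307 with GnRH and 321 to 343 in controls (5 below 0), and the groups stayed apart when any 1 of the 5 was left out. None of these 16 markers passed the test (limma). At an unadjusted p under 0.05, 6 of the 16 were lower, against 5.66% of all probe sets, and 1 was higher, against 6.60%. The 3 lists were singled out for their lower sums, which favours lower markers, so this count is not separate evidence of a fall.

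Gonadotropes, the cells that GnRH acts on, had the only markers of the 8 lists that passed, named after their values were seen. Gnrhr, the GnRH receptor, had 8.78, 9.45 and 8.94 with GnRH and 7.85, 7.78 and 8.16 in controls, and rose by 1.12 on the log2 scale (limma adjusted p = 0.0215). Nr5a1, the transcription factor SF-1 of gonadotropes, rose by 0.54 (limma adjusted p = 0.0471). The other 3 gonadotrope markers, Lhb, Cga and Fshb, did not pass. Their log2 fold changes were 0.34, 0.18 and -0.30, so 4 of the 5 were above 0 and 1 below. The summed intensity of all 5, most of it from the bright Cga and Lhb, overlapped (14646 to 18129 with GnRH, 12964 to 16579 in controls). The groups also overlapped in the sums of endothelial markers (352 to 380 with GnRH, 358 to 390 in controls; 1 above 0, 3 below). The same held for keratins and Epcam (2795 to 3497 with GnRH, 3264 to 3830 in controls), where all 5 were below 0, as in leukocytes. It held too for fibroblast and pericyte markers (661 to 877 with GnRH, 686 to 926 in controls, with 3 above 0 and 2 below). The sum for the other endocrine cells, most of it from Gh1 and Prl, overlapped as well (38122 to 38758 with GnRH, 36254 to 38354 in controls). Without Prl that sum was lower with GnRH without overlap (19161 to 20112 with GnRH, 20171 to 22332 in controls). Without Gh1 it was higher without overlap (19740 to 20663 with GnRH, 17131 to 19582 in controls). RMA gives every probe set a value above 0, so no marker is listed at 0. In whole tissue, fewer cells of a type and less RNA per cell cannot be told apart, and the part of these cells in the differences of Hbegf and Errfi1 was not tested.

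Other genes of the pathway were read from a list of 76 genes in 5 roles, of which 60 had a probe set that names them alone. Each was represented by its probe set with the highest mean. By that probe set 0 of 60 passed the test (limma adjusted p under 0.05, passed by 0.464% of all probe sets), and 4 were higher and 4 lower at an unadjusted p under 0.05, against 6.60% and 5.66% of all probe sets. Their median log2 fold change was -0.015, with a range from -0.43 to 0.47, next to -0.025 for all probe sets. Of all probe sets 57.4% were below 0, which is the share to set beside the counts by role that follow. The 60 genes had 121 probe sets in all, of which 3, or 2.48%, passed. These were dimmer probe sets of Timp3, Pik3r2 and Akt1, looked up after their values were seen.

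Genes that act on ligand shedding had 9 of 12 log2 fold changes below 0 and a median of -0.12. Timp3, the metalloproteinase inhibitor that also blocks Adam17, had 9.35, 9.44 and 9.35 with GnRH and 9.75, 9.82 and 9.87 in controls on its brightest probe set, a difference of -0.43 ± 0.084 (SE) that missed the threshold (limma adjusted p = 0.0613). On probe set 1375138_at Timp3 fell by 0.50 ± 0.091 (SE), with 8.82, 8.91 and 8.71 with GnRH and 9.23, 9.35 and 9.37 in controls (limma adjusted p = 0.0494). Of the 4 Timp3 probe sets, 1375138_at alone passed. Mmp9, a secreted gelatinase, had a log2 fold change of -0.26 (limma adjusted p = 0.399), with control 3 the highest array at 5.20. Against controls 1 and 2 the Mmp9 difference was -0.13. Its means, 4.66 with GnRH and 4.92 in controls, were below 4.96, the bound of the dimmest 25% of probe sets.

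Among effectors outside the ERK chain, 9 of 14 log2 fold changes were above 0, with a median of 0.067. Akt1, a kinase downstream of PI3 kinase, had 8.00, 7.85 and 7.88 with GnRH and 7.44, 7.54 and 7.33 in controls on its brightest probe set. That difference, 0.47 ± 0.093 (SE), missed the threshold (limma adjusted p = 0.0640), and on probe set 1368862_at Akt1 rose by 0.69 ± 0.12 (SE; limma adjusted p = 0.0411). Of the 3 Akt1 probe sets, 1368862_at alone passed. Pik3r2, a regulatory subunit of PI3 kinase, rose by 0.69 ± 0.11 (SE) on probe set 1370100_at, with 6.67, 6.84 and 6.63 with GnRH and 6.24, 5.93 and 5.90 in controls (limma adjusted p = 0.0314). On the brighter Pik3r2 probe set the difference was 0.20 (limma adjusted p = 0.425). The kinase Src had a log2 fold change of 0.35 with separate groups and did not pass (limma adjusted p = 0.217).

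The adaptors and the Ras to ERK chain were split, with 6 of 13 log2 fold changes above 0 and a median of -0.024. Map2k2, a kinase that activates ERK, had 0.28 (limma adjusted p = 0.376) and the scaffold Ksr1 had -0.20 (limma adjusted p = 0.398). Among the inhibitors of receptor and ERK, besides Errfi1, 12 of 17 were below 0 with a median of -0.026. Dusp6, the phosphatase that switches off ERK and is itself induced by it, had 8.83, 8.49 and 8.37 with GnRH and 8.89, 8.82 and 8.91 in controls, a difference of -0.31 (limma adjusted p = 0.326). The first GnRH array lay inside the range of the controls. Lrig1, a membrane protein that limits ERBB receptors, had a log2 fold change of 0.17 (limma adjusted p = 0.507).

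The neuregulins and Erbb4 gave 4 named genes, with log2 fold changes from -0.0072 to 0.054. Nrg2 had 0.054 and Nrg1 0.043, with limma adjusted p-values of 0.841 and 0.903. Their values were interleaved between the groups.

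**Figure D4:**
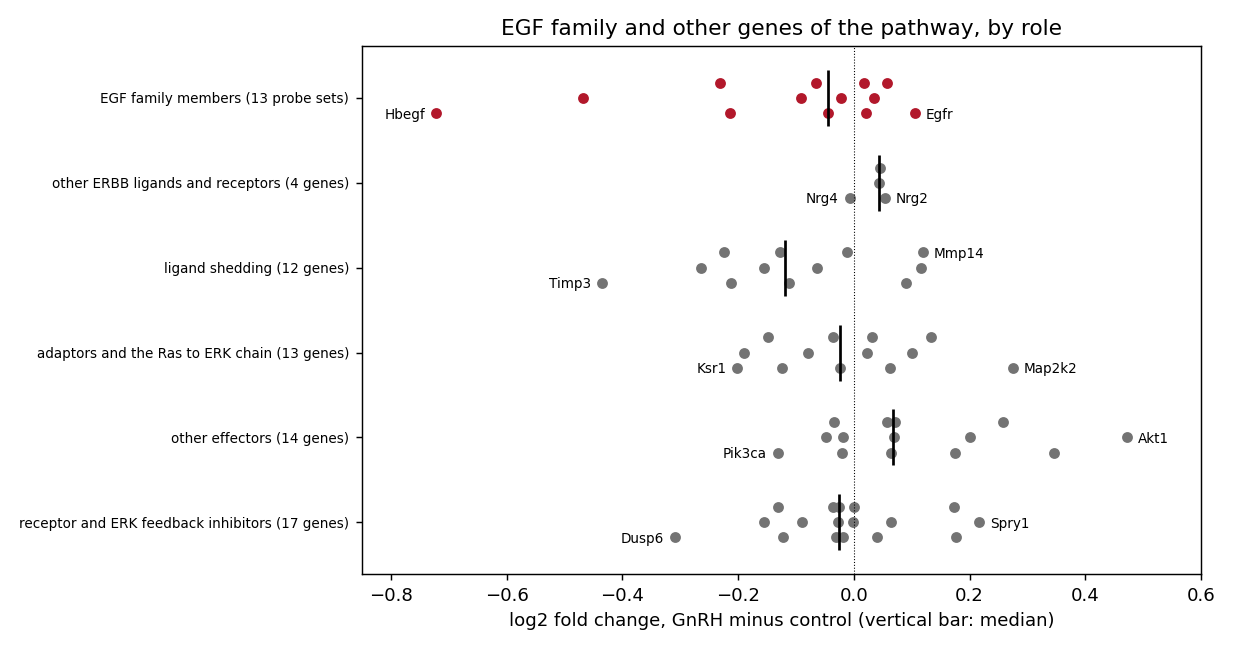
Log2 fold change, GnRH minus control (horizontal axis), of the 13 EGF family probe sets (red) and of 60 other genes of the pathway (grey, 1 probe set each), in rows by role; black bars mark the medians and the outermost genes of each row are named. Hbegf lies furthest to the left at -0.72 and Akt1 furthest to the right at 0.47.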

How the data were processed

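Log2 values of 6 arrays were compared, 3 with 10 nM GnRH and 3 controls, grouped by their titles. Intensities were deposited on a linear scale, the output of RMA per the submitters' processing notes, and the sources used here name no software version or filter. The number of arrays limits the precision. Probe sets were named from the supplied array annotation, with symbols brought up to date by gene identifier against the GRCr8 RefSeq table: 20826 of 31042 had 1 symbol, 436 several, and 9780 are unnamed here. All 31042 were fitted by lmFit and eBayes of limma 3.58.1 (R 4.3.3; two-sided, no covariate, no filter, no pseudocount) and p-values adjusted by Benjamini-Hochberg over all of them. The fit was tested on simulated data. Every member is reported; other pathway genes are named if they passed or had one of the 2 smallest p-values of their role. Members and lists were chosen with earlier results of these data known. Alternatives were other scalings, a dim filter, pseudocounts, variance priors, array weights, a replicate block and left-out arrays. Promoters are RefSeq's.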

Additional observations from a re-analysis of the deposited data

How the results depend on the processing

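Of 223 comparisons of a member's log2 fold change with its value under 1 of 18 alternatives, 197 kept direction and side of the threshold, 5 newly passed and 21 turned sign, none of these 21 past the threshold. The array-wide count of 144 moved to 90 with repeated quantile normalization, 93 with cyclic loess, 74 with a pseudocount of 16, 3020 with array weights, 265 with control 3 as the lone control and 341 at an adjusted p under 0.10, and from 20 (without GnRH 2) to 2309 (without control 3) without 1 array. Control 3 as the lone control is assumed to vary like the GnRH arrays. The count of members past the threshold, 0 of 13, moved to 2 with array weights, 1 with the replicate block, 1 at an adjusted p under 0.10, and 0 to 2 without 1 array, the 2 being Hbegf and Errfi1 without control 3. Without 1 array, values ran from -0.075 to 0.035 for Tgfa 1381449_s_at, -0.15 to -0.027 for Ereg, -0.12 to 0.047 for Btc, -0.017 to 0.059 for Egf, -0.098 to 0.22 for Egfr 1370830_at, -0.083 to 0.38 for Egfr 1381145_at, -0.0021 to 0.047 for Egfr 1385413_at, -0.20 to 0.032 for Erbb2 and 0.013 to 0.13 for Erbb3. Sign turned for Tgfa 1381449_s_at with quantile normalization (0.023), cyclic loess (0.027), array weights (0.040), without GnRH 3 and without control 1 (0.0089). It turned for Btc with array weights (0.015), without GnRH 3 (0.0084), without control 1 and with control 3 alone (0.0024), and for Egf without GnRH 1 and without control 3 (-0.011). For Egfr it turned on 1370830_at without GnRH 3 (-0.012), control 1 (-0.018) or control 2 and with control 3 alone (-0.33), on 1381145_at without control 1 and with control 3 alone (-0.45), and on 1385413_at without control 3. Erbb2 turned without control 1 and with control 3 alone (0.21), and Ereg with control 3 alone (0.016). The cause was not tested. Leaving single genes out of the marker sums was chosen after seeing the data. No label says whether the replicate numbers pair the samples. Deviations from the group means correlated at 0.16, -0.049 and 0.16 for numbers 1, 2 and 3. With so few arrays these values cannot settle whether the numbers pair the samples. With the number as a block 215 probe sets passed, among them Hbegf (-0.72, limma adjusted p = 0.0476), and Errfi1 did not (limma adjusted p = 0.122). Without detection calls, what the dim probe sets of Areg, Egf and Tgfa could show is limited.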
